A study of Mus musculus with 63 samples.

Results

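RNA sequencing compared mouse hearts that carried a transgene for human mitofusin 2 with hearts that carried none, at postnatal day 21 (P21, 3 weeks of age). Of the 63 libraries in the series 12 belonged to this comparison, 6 from Mfn2wt hearts and 6 from nontransgenic (ntg) hearts. They were chosen by the genotype and age in the sample titles, and all 12 were made in the library batch of that age. The mice had the FVB/N strain background, no treatment is labelled, and the Mfn2wt hearts overexpressed human mitofusin 2 of unaltered sequence. The labels do not give the promoter or cell type that drives the transgene, whether Mfn2wt mice also carry the tet-off driver, the number of transgenic lines or the sex of the animals. The tissue is labelled as left ventricle, while the extraction protocol takes the apex of the ventricles. Replicates 1 to 3 of Mfn2wt and 1 to 5 of ntg share a number in their titles, here called title number A, and replicates 4 to 6 of Mfn2wt and replicate 6 of ntg share another, title number B. What these numbers stand for is not given. Later comparisons use 4 Mfn2wt and 6 ntg hearts at P1, 4 Mfn2wt and 4 ntg hearts at 5 weeks, and, at P21, 6 Mfn2AA hearts and 5 tet-off hearts. Mfn2AA hearts overexpressed human mitofusin 2 with a threonine and a serine changed to alanine, and tet-off hearts are the labelled tet-off control.

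Mitofusin 2 sits in the outer mitochondrial membrane, tethers and fuses mitochondria, and serves in the quality control pathway of the kinase PINK1 and the ubiquitin ligase Parkin. Cells that sense failing mitochondria, missing amino acids or misfolded protein phosphorylate the translation factor eIF2 alpha, which slows most protein synthesis and favours translation of the transcription factor ATF4. ATF4 then switches on genes for amino acid synthesis and uptake, tRNA charging, the mitochondrial folate cycle and secreted hormones such as FGF21 and GDF15. This programme, the integrated stress response, is well known from hearts and skeletal muscle with mitochondrial disease.

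Counted reads ran from 5292335 to 24339146 per library over the 12 libraries. The ribosomal RNA gene Rn45s took 2.08% to 6.96% of counts and mitochondrially encoded genes took 3.18% to 7.62%. Levels are given as CPM, the count of a gene relative to the library's total, scaled between libraries by the trimmed mean of M-values. The 12 markers of ventricular cardiomyocytes summed to between 99500 and 124000 CPM in Mfn2wt hearts and to between 106000 and 133000 CPM in ntg hearts. The 13 atrial markers summed to between 263 and 1280 CPM in Mfn2wt hearts and to between 366 and 7710 CPM in ntg hearts, with the highest value in ntg replicate 2, and none of the 13 was at 0 throughout. Summed markers of fibroblasts, endothelial cells, smooth muscle and macrophages overlapped between the groups.

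The human transgene was checked first, in the deposited FPKM table, which lists it. Its lowest, median and highest FPKM were 1405, 1551 and 1796 in Mfn2wt hearts and 5.48, 15.5 and 52.1 in ntg hearts. Every Mfn2wt library lay above every ntg library, a difference of 6.49 in mean log2(FPKM + 1) with an exact two-sided permutation p of 0.00216, the smallest that 6 against 6 libraries can give. The mouse Mfn2 gene had 860, 1080 and 1100 CPM (lowest, median, highest) in Mfn2wt hearts and 886, 1040 and 1230 CPM in ntg hearts, a log2 fold change of -0.02 ± 0.11 (SE). Park2, which encodes Parkin, had medians of 4.28 CPM in Mfn2wt and 3.45 CPM in ntg hearts (log2 fold change 0.19 ± 0.17), and Pink1 had medians of 506 and 531 CPM (-0.13 ± 0.12). None of these 3 mouse genes passed the test.

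Few genes changed across the transcriptome, and 22 of the 54 that rose belong to lists of the integrated stress response, amino acid supply and tRNA charging. Genes were called with edgeR's quasi-likelihood test at a Benjamini-Hochberg adjusted p below 0.05 over 13585 genes. With n = 6 and 6 libraries, 82 genes (0.604%) were called, of which 54 (0.397%) were higher and 28 (0.206%) lower in Mfn2wt hearts, and 1045 genes had an unadjusted p below 0.05. Of the 82 genes 26 differed at least 2-fold, 20 of them higher and 6 lower. CPM values did not overlap between the groups for 39 of the 54 risers and 11 of the 28 fallers, while 107 of all 13585 genes (0.788%) did not overlap. Nothing in the labels beyond the titles says that libraries came from separate animals, so p-values measure the spread between these samples. The count of called genes moved with single libraries, to 45 without Mfn2wt replicate 6, 52 without Mfn2wt replicate 4, 52, 52 and 50 without ntg replicates 3, 4 and 5, and 145 without ntg replicate 6. In the 3 Mfn2wt and 5 ntg hearts with title number A alone it was 47, of which 31 were among the 82. The median log2 fold change of all genes tested was 0.0002643.

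**Figure D1:**
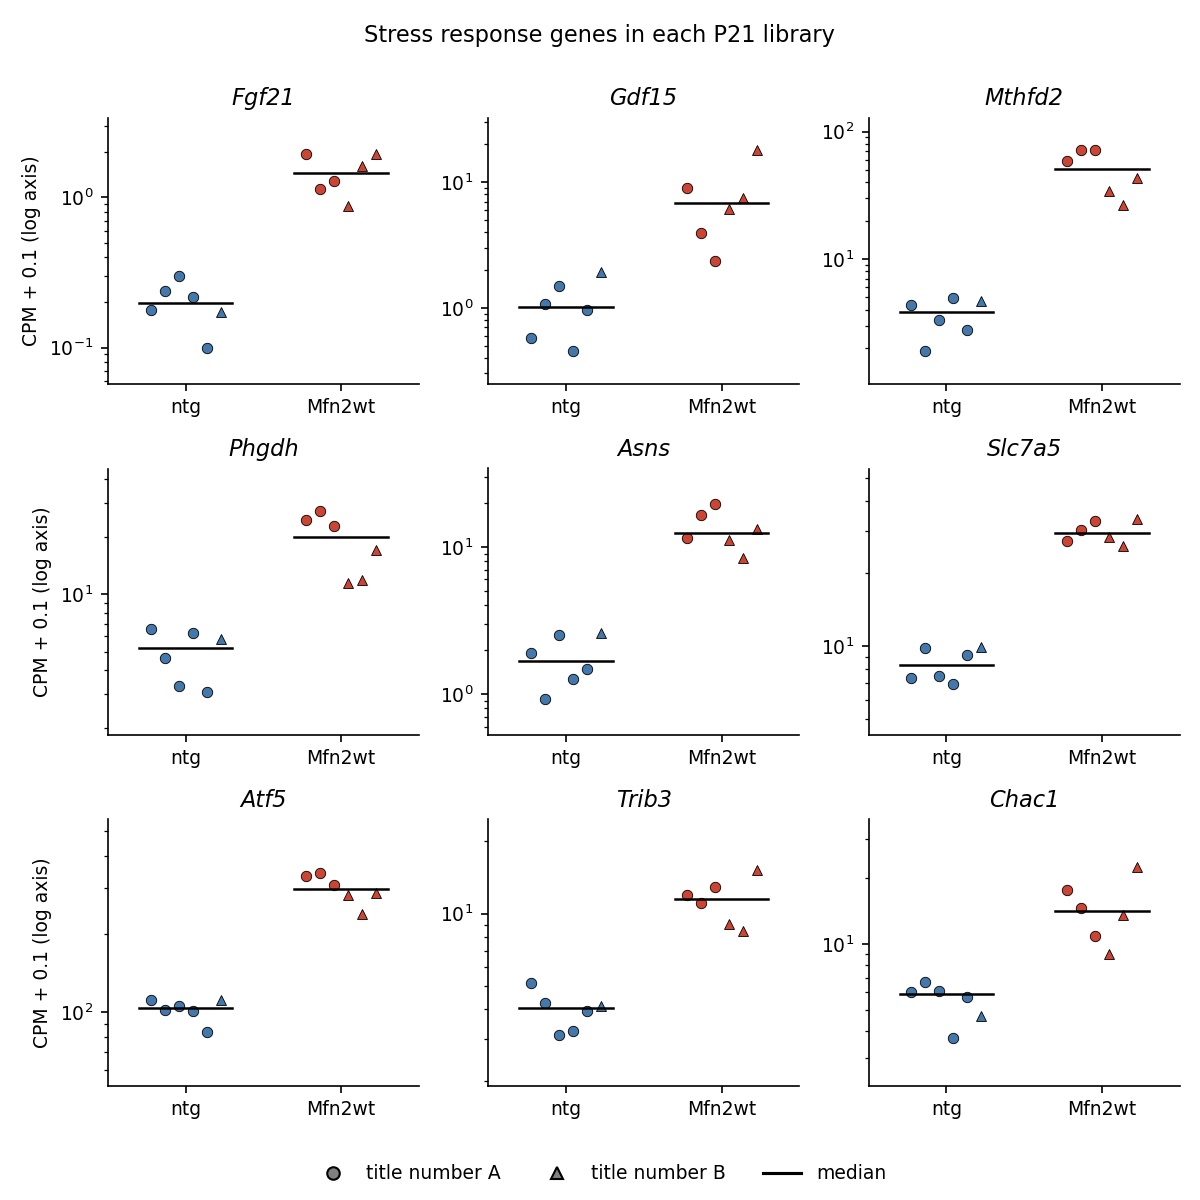
CPM in each of the 12 libraries for genes of the integrated stress response, on a log axis with a small constant added to CPM, with circles for title number A, triangles for B and a line at each group's median. For Mthfd2, Asns, Atf5 and Trib3 all 6 Mfn2wt points lie above all 6 ntg points.

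Promoter sequence is shown for 5 of the risers because they belong to 3 different arms of the programme (a hormone, 2 metabolic or regulatory enzymes, 2 tRNA synthetases) and each holds the same 8-letter motif. ATF4 paired with C/EBP-family partners is known to bind TGATGNAA, which reads TTNCATCA on the other strand. RefSeq promoters of build GRCm38.p6, 250 bases before to 50 after the gene start (300 in all), were matched for 42 of the 54 risers, 21 of the 28 fallers and 10011 of the 13585 genes. On either strand the motif stood in 9 of the 42 risers (21.4%), in 1 of the 21 fallers (4.76%) and in 222 of all 10011 promoters (2.22%). The risers with a match were Fgf21, Asns, Trib3, Chac1, Slc1a4, Gars, Aars, Yars and Iars, and the faller was Hcn4. Among the risers without a match were Mthfd2, Gdf15, Phgdh, Atf5, Atf4, Aldh18a1 and Sars. In Trib3, Yars, Iars and Hcn4 the match begins after the gene start, and Aars has a further match there. A match describes the letters in this window and not a bound site. Each stretch below is written 5′ to 3′ on the gene's own strand, with the motif in capitals, and ends before the RefSeq start. In Fgf21, chr7:45615582-45615669 on the minus strand, the motif begins 139 bases before the start. In Asns, chr6:7693210-7693272 on the minus strand, it begins 23 bases before it, and in Chac1, chr2:119351009-119351096 on the plus strand, 193 bases before it. In Gars, chr6:55037931-55038000 on the plus strand, it begins 30 bases before the start, and in Aars, chr8:111033690-111033777 on the plus strand, 112 bases before it.
Fgf21: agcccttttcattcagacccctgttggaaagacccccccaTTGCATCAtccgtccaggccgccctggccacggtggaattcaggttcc
Asns: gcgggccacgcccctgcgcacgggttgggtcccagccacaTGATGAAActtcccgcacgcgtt
Chac1: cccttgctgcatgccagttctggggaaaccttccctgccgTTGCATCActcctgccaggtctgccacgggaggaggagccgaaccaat
Gars: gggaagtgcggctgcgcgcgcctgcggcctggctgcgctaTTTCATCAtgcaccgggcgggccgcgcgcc
Aars: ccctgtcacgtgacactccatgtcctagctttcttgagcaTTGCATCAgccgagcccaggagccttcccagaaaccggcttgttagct

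Both secreted stress hormones were higher in Mfn2wt hearts, from levels near the detection limit in controls. Fgf21 (chr7:45613890-45615490 in mm10, the build of the deposited coordinates), a hormone that acts on energy metabolism in other organs, had 0.774, 1.35 and 1.86 CPM (lowest, median, highest) in Mfn2wt hearts and 0, 0.0972 and 0.2 CPM in ntg hearts. The groups did not overlap, and the log2 fold change was 3.87 ± 0.48 (SE; edgeR adjusted p 2.23e-05). These levels rest on 115 reads in the 6 Mfn2wt libraries and 5 in the 6 ntg libraries, a ratio scaled to depth of 16.2 with a 95% exact binomial interval of 6.75 to 50.9 that covers counting error only. Gdf15 (chr8:70629394-70631635), a circulating marker of mitochondrial and cardiac disease, had 2.24, 6.68 and 18 CPM in Mfn2wt hearts and 0.349, 0.915 and 1.82 CPM in ntg hearts. Its lowest Mfn2wt library stood above its highest ntg library (2.95 ± 0.52, adjusted p 0.00271).

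Among the 19 tested regulators of the integrated stress response 4 rose, none fell, and the list's median log2 fold change was 0.209 (15 of 19 positive). Atf5 (chr7:44812256-44816658), a transcription factor of the mitochondrial stress response, had 239, 298 and 343 CPM in Mfn2wt hearts and 83.7, 104 and 111 CPM in ntg hearts (1.55 ± 0.10, adjusted p 4.23e-10). Atf4 mRNA itself had 88.5, 104 and 122 CPM in Mfn2wt hearts and 64.1, 72.2 and 79.3 CPM in ntg hearts (0.53 ± 0.08, adjusted p 0.000321). Neither gene overlapped between the groups. Trib3 (chr2:152337425-152344060), a pseudokinase that restrains ATF4 and AKT signalling, had medians of 11.4 CPM in Mfn2wt and 3.92 CPM in ntg hearts (1.53 ± 0.16, adjusted p 1.08e-06). Chac1 (chr2:119351242-119354327), an enzyme that degrades glutathione, had medians of 14 and 5.8 CPM (1.43 ± 0.19, adjusted p 6.38e-05). In both genes the 2 ranges were apart.

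The uncalled regulators were mostly positive, and most had a smaller log2 fold change than Atf4. Ddit3, which encodes CHOP, had 30.6, 33.7 and 41.8 CPM in Mfn2wt hearts and 22.3, 24.6 and 31.3 CPM in ntg hearts, ranges that overlap at the edge (0.47 ± 0.13, adjusted p 0.108). It was called with DESeq2 (adjusted p 0.0392), with the 2 groups fitted alone (0.0401) and with the title number as a block (0.0428). Sesn2, a sensor of leucine, had medians of 7.37 and 4.32 CPM (0.67 ± 0.17, adjusted p 0.0865). Its log2 fold change was larger than that of Atf4, and it was called in 3 of 23 alternative settings. Cebpg, a partner of ATF4, had a log2 fold change of 0.38 ± 0.11 (adjusted p 0.165). The 4 kinases that phosphorylate eIF2 alpha (Eif2ak1, Eif2ak2, Eif2ak3 and Eif2ak4) were not called.

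In the serine and folate pathways the change fell on 2 of 18 tested enzymes, with a list median of 0.0424, close to that of all genes. Mthfd2 (chr6:83305704-83317604), the mitochondrial folate enzyme that is normally low in adult tissue, had 26.6, 51 and 71.7 CPM in Mfn2wt hearts and 1.79, 3.72 and 4.88 CPM in ntg hearts. Every Mfn2wt library stood well above the highest ntg library, and the log2 fold change was 3.80 ± 0.30 (adjusted p 5.5e-09). Phgdh (chr3:98313171-98339969), which commits glucose carbon to serine, had 11.3, 19.8 and 27.1 CPM against 2.97, 5.12 and 6.5 CPM (1.95 ± 0.24, adjusted p 2.61e-05). Within the Mfn2wt group both enzymes were higher in replicates 1 to 3, at 58.5, 71.7 and 71.4 CPM for Mthfd2 and 24.4, 27.1 and 22.6 CPM for Phgdh, than in replicates 4 to 6, at 34, 26.6 and 43.4 CPM and 11.3, 11.8 and 16.9 CPM. That split follows the title number, and its part in these values was not tested.

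The enzymes that complete serine synthesis and the folate cycle did not pass. Psat1, the aminotransferase after Phgdh, had medians of 3.88 and 3.52 CPM (0.21 ± 0.18), and Psph, which releases serine, had a log2 fold change of -0.10 ± 0.13. Shmt2, the mitochondrial enzyme that moves a carbon unit from serine to folate, had 0.15 ± 0.09. Aldh1l2, which oxidises the mitochondrial folate product to carbon dioxide, had 24.8, 29.8 and 43.1 CPM in Mfn2wt and 13.9, 20.8 and 27.4 CPM in ntg hearts (0.64 ± 0.17, adjusted p 0.0876), with overlap.

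Of 12 tested enzymes for asparagine, proline, alanine, aspartate and transsulfuration 2 rose and none fell (median 0.185). Asns (chr6:7675171-7693182), which makes asparagine, had 8.29, 12.3 and 19.4 CPM in Mfn2wt hearts and 0.825, 1.58 and 2.48 CPM in ntg hearts (2.98 ± 0.32, adjusted p 1.82e-06). Aldh18a1, the first enzyme of proline synthesis, had 22.8, 28.2 and 29.2 CPM against 11.7, 14.4 and 16.4 CPM (0.95 ± 0.09, adjusted p 7.2e-07). Neither gene overlapped between groups, while Pycr1, the last enzyme of proline synthesis, was not called (0.38 ± 0.23).

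Of 19 tested amino acid transporters 2 rose (median 0.112). Slc7a5 (chr8:121881146-121907686), the carrier for large neutral amino acids, had 25.9, 29.2 and 33.5 CPM in Mfn2wt hearts and 6.86, 8.26 and 9.77 CPM in ntg hearts (1.82 ± 0.14, adjusted p 3.77e-09). Slc1a4, a carrier for alanine, serine and cysteine, had 14.6, 18.4 and 20.8 CPM against 7.83, 10.3 and 14.5 CPM (0.72 ± 0.13, adjusted p 0.00456). The ranges of Slc7a5 were far apart and those of Slc1a4 were separated by a narrow gap. Against tet-off hearts in place of ntg Slc1a4 was not called (0.42, adjusted p 0.0621).

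The cytosolic aminoacyl-tRNA synthetases, which join each amino acid to its tRNA, held the largest number of risers of any list, 10 of 20 tested, each with Mfn2wt values wholly above ntg values. The list's median log2 fold change was 0.324 and 17 of its 20 members were positive. Cars had 29.7, 32 and 38.7 CPM in Mfn2wt and 17.6, 19.4 and 24.5 CPM in ntg hearts (0.71 ± 0.08, adjusted p 9.6e-06). Gars had 85.3, 90.3 and 109 CPM against 49.5, 57.6 and 65.2 CPM (0.68 ± 0.09, adjusted p 6.26e-05), and Sars had 97.9, 103 and 115 CPM against 65, 70.8 and 75.6 CPM (0.57 ± 0.07, adjusted p 9.6e-06). These 3 enzymes charge tRNAs with cysteine, glycine and serine. Mars, Aars, Yars, Iars and Nars rose by log2 values of 0.59, 0.59, 0.53, 0.53 and 0.47. The smaller rises of Eprs (0.42 ± 0.09) and Lars (0.31 ± 0.07) lost their call without any of 9 and 10 single libraries. Over all settings their adjusted p values ran up to 0.162 and 0.0966. Iars lost its call without Mfn2wt replicates 4 or 6 or ntg replicates 1, 3 or 4. Xpot, which exports tRNA from the nucleus and is in no list, had 35.3, 41 and 45.3 CPM against 28.7, 30.4 and 35.7 CPM (0.40 ± 0.07, adjusted p 0.00297). Within the hearts of title number A, 4 synthetases were called.

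The 6 lists described above (hormones, regulators, serine and folate enzymes, amino acid enzymes, transporters and tRNA synthetases) joined to 90 tested genes. Of these 22 rose (24.4%) and 0 fell, against 0.397% and 0.206% of all genes, and 65 had a positive log2 fold change. They made up 40.7% of the 54 risers, and 32 risers were in no list of the 42 written. These 6 were the only lists of the 42 with a riser, and the lists were chosen with earlier results of these data known. The shares therefore describe the calls and are no test of the lists.

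**Figure D2:**
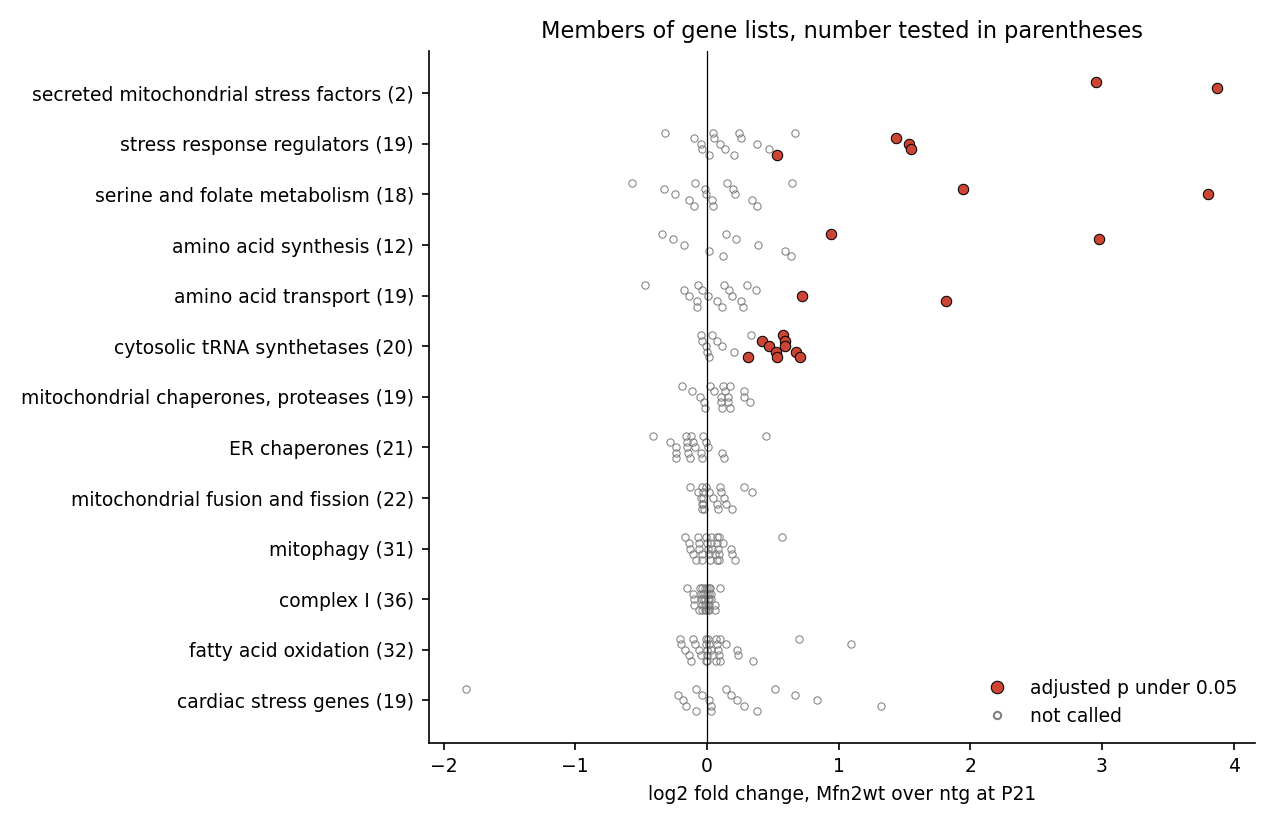
Log2 fold change of Mfn2wt over ntg at P21 for each tested member of the stress response lists and of comparison lists, with called members marked. Called members sit on the right of 0 in the stress lists, and the 7 comparison lists, from mitochondrial chaperones to cardiac stress genes, hold none.

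Other stress and mitochondrial programmes had no called member. Of 19 mitochondrial chaperones and proteases 14 had a positive log2 fold change (median 0.112), among them Lonp1, a matrix protease, at 0.28 ± 0.11 (adjusted p 0.483), Hspa9, the matrix HSP70, at 0.28 ± 0.11 (adjusted p 0.483), and Hspd1, the matrix chaperonin, at 0.16 ± 0.10. Endoplasmic reticulum chaperones ran the other way, with 4 of 21 positive and a median of -0.123, and Hspa5, the chaperone BiP, stood at -0.15 ± 0.12. Their difference from the regulators was not tested. The 31 mitophagy and autophagy genes (median 0.0291) included Optn, a receptor of damaged mitochondria, at 0.57 ± 0.15 (adjusted p 0.101). Among genes of mitochondrial fusion, fission and transport 22 were tested (median 0.00182).

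Energy metabolism showed the same absence of calls in the main fit. No call was made among 13 mitochondrially encoded genes (median 0.0448), 36 nuclear subunits of complex I (-0.00992), 41 subunits of complexes II to V (-0.00335), 20 genes of the tricarboxylic acid cycle (0.0254), 32 of fatty acid uptake and oxidation (0.0101) and 25 of glycolysis (0.0125). The 15 tested regulators of mitochondrial metabolism, such as Ppargc1a, also had none (median 0.0813). Nearest to a call was Pgam1, a glycolytic enzyme, at 0.37 ± 0.09 (adjusted p 0.0595). Acot2, a mitochondrial acyl-CoA thioesterase, stood at 0.70 ± 0.19 (adjusted p 0.108). Alternative settings gave calls for Pgam1 in 8 of 24, for Acot2 in 5 and for Pfkfb2, a further glycolysis gene, in 4. Pdhb, Dld and mt-Atp8 were called in 1 setting each.

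Lists of cardiac stress and contraction genes had no called member either. The 19 natriuretic and stress genes had a median of 0.0311. Nppa, the atrial natriuretic peptide, had 60.6, 243 and 432 CPM in Mfn2wt hearts and 74.5, 266 and 4120 CPM in ntg hearts, where the highest value came from ntg replicate 2, the library with the highest atrial markers. The 20 sarcomere genes had a median of -0.051, 24 matrix genes -0.0138, 22 antioxidant genes 0.0906, 13 cytosolic heat shock genes 0.132, 21 interferon-stimulated genes -0.112, 19 cholesterol synthesis genes -0.00851 and 20 immediate early genes -0.0261. Among 35 cell cycle genes 31 were positive, with a median of 0.109 and no call, and the largest value was Kif11 at 0.46 ± 0.25 (adjusted p 0.711). Cdkn1a, the inhibitor p21, is in the list of 20 p53 and apoptosis genes and stood uncalled at 1.02 ± 0.28 (adjusted p 0.117). In bulk tissue fewer cells of a type and less RNA per cell cannot be told apart.

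Outside the lists, Macrod2 (chr2:140395430-142390050, plus strand), an enzyme that removes ADP-ribose from proteins, had the smallest adjusted p of the comparison. It had 25.7, 30.5 and 52 CPM in Mfn2wt hearts and 3.16, 4.39 and 4.74 CPM in ntg hearts (3.04 ± 0.17, adjusted p 5.95e-12) and the ranges were far apart. Sel1l2, singled out after its values were seen, lies beside it at chr2:140229858-140389710 on the minus strand, 5719 bases away. Sel1l2 had 88 reads in the Mfn2wt libraries and 2 in the ntg libraries, a ratio of 31 with a 95% exact binomial counting interval of 8.34 to 260 (fitted log2 fold change 4.53 ± 0.72, adjusted p 0.00176). Of 34 other genes tested within 5 Mb of Macrod2 on each side, Sel1l2 was the 1 called, and their median was 0.0342. Counting did not use strand, so reads of overlapping or adjoining transcripts are not separable here.

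Further risers had varied roles. Tchhl1, a gene related to trichohyalin, had 0.56, 1.94 and 2.11 CPM against 0, 0.0362 and 0.292 CPM, from 135 reads against 6 (3.92 ± 0.55, adjusted p 0.000138). Tfcp2l1, a transcription factor of epithelia and stem cells, had 1.84, 2.37 and 3.67 CPM against 0.796, 0.843 and 1 CPM (1.59 ± 0.27, adjusted p 0.00176). Both were low in ntg hearts, and in neither did the groups overlap. Brca2, a DNA repair gene, had 4.26, 5.82 and 7.45 CPM against 1.6, 2.7 and 3.49 CPM (1.10 ± 0.18, adjusted p 0.00117). Ccnd2, cyclin D2, had 210, 303 and 327 CPM against 155, 182 and 192 CPM (0.71 ± 0.12, adjusted p 0.00195). Both kept their call in every setting that tested them, 21 for Brca2 and 24 for Ccnd2.

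Metabolic genes stood among the remaining risers. Upp1, uridine phosphorylase, had 6.33, 7.2 and 9.15 CPM in Mfn2wt and 3.57, 4.36 and 5.18 CPM in ntg hearts, without overlap (0.73 ± 0.12, adjusted p 0.00198). Slc25a5, which encodes the ADP/ATP carrier ANT2, had 443, 454 and 521 CPM against 333, 366 and 395 CPM (0.36 ± 0.08, adjusted p 0.0225), a small rise without overlap. The Slc25a5 call ended without Mfn2wt replicate 1 or ntg replicates 1, 2, 4 or 5, and with the title number as a block (adjusted p 0.0715). Prune2 had 62.5, 81.4 and 156 CPM against 23.8, 43.9 and 52.4 CPM (1.17 ± 0.24) and lost its call without Mfn2wt replicate 4 or 6 and against tet-off hearts (0.34, adjusted p 0.432). Tmem116 (1.24 ± 0.24, adjusted p 0.00779) kept its call without any library but not with the title number as a block (adjusted p 0.0775). Ahrr, a repressor of the aryl hydrocarbon receptor (1.30 ± 0.30), Sun3 (1.16 ± 0.25) and Gnb3, a G protein beta subunit (1.08 ± 0.23), lost their calls without any of 9, 7 and 7 single libraries, with adjusted p values up to 0.399, 0.114 and 0.375 over all settings.

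The genes that fell included membrane receptors, pacemaker and calcium channels and lipid enzymes, and 23 of the 28 were in no list. Cacna1g (chr11:94408391-94474198), the T-type calcium channel of pacemaking and young ventricular cells, had 50.8, 57.3 and 61.3 CPM in Mfn2wt hearts and 74.8, 114 and 145 CPM in ntg hearts (-0.99 ± 0.14, adjusted p 0.000177). Hcn4 (chr9:58823512-58860955), the main pacemaker channel, had 5.42, 7.78 and 10.2 CPM against 10.1, 13.6 and 22 CPM (-0.96 ± 0.19, adjusted p 0.0128). Cacna1g ranges were apart and Hcn4 ranges met at their edge, and the Hcn4 call ended without ntg replicate 5 (-0.80, adjusted p 0.0614). These were the 2 called members of 27 tested genes of calcium handling and ion channels, whose median was -0.125. The 13 atrial markers had a median of -0.814 with 1 positive and none called, and their part in the 2 channel values was not tested. Within title number A, where summed atrial markers ran from 724 to 1280 CPM in the 3 Mfn2wt hearts and from 366 to 7710 CPM in the 5 ntg hearts, Cacna1g stood at -1.10 (adjusted p 0.000205) and Hcn4 at -1.14 (adjusted p 0.03).

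Dbh, which converts dopamine to noradrenaline, had 3.87, 5.35 and 6.73 CPM in Mfn2wt hearts and 7.00, 12 and 13.8 CPM in ntg hearts (-1.16 ± 0.16, adjusted p 0.000152), without overlap. Beside it, the 9 neural and Schwann cell markers, of which Dbh is a member, summed to between 16.1 and 22.4 CPM in Mfn2wt and to between 22.7 and 34.6 CPM in ntg hearts, with Th at 0 in all ntg hearts. Of the 5 tested, Dbh was the 1 called (list median -0.239), and the part of these markers in the Dbh value was not tested. Adra1b, the alpha-1B adrenergic receptor, had 35.8, 40.1 and 49.2 CPM against 41.3, 66.4 and 73 CPM (-0.63 ± 0.13, adjusted p 0.018). It overlapped through ntg replicate 6 and lost its call without Mfn2wt replicates 4 or 6 or ntg replicates 3, 4 or 5, with adjusted p values up to 0.0674. Adrbk2, the receptor kinase GRK3, had 24.6, 26.2 and 31.4 CPM against 34.8, 36.6 and 49.2 CPM (-0.50 ± 0.10, adjusted p 0.00938), without overlap, and was not called with the title number as a block (adjusted p 0.0683).

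Of the largest falls 3 shared an overlap that came from ntg replicate 6, the only ntg heart with title number B. Pla2g4e (chr2:120166412-120245335), a phospholipase that makes N-acyl phospholipids, had 3.52, 4.64 and 7.69 CPM in Mfn2wt hearts and 5.1, 23.8 and 38.5 CPM in ntg hearts (-2.25 ± 0.37, adjusted p 0.00157). Sema6c, a membrane semaphorin, had 7.03, 10.5 and 13.8 CPM against 13, 30.1 and 53.1 CPM (-1.57 ± 0.24, adjusted p 0.00048). Ramp1, a subunit of the receptor for calcitonin gene-related peptide, had 1.78, 3.89 and 5.1 CPM against 3.5, 10.6 and 15.2 CPM (-1.51 ± 0.27, adjusted p 0.00346). The lowest ntg value of each, 5.1, 13 and 3.5 CPM, was that of replicate 6, inside the Mfn2wt range, while the other 5 ntg hearts stood above all Mfn2wt hearts. Without that library the log2 fold changes were -2.48, -1.74 and -1.71 (adjusted p 2.56e-05, 1.7e-05 and 4.76e-05). Within title number A, which leaves it out, they were -2.25, -1.54 and -1.22 (adjusted p 0.000205, 0.0037 and 0.00532).

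**Figure D3:**
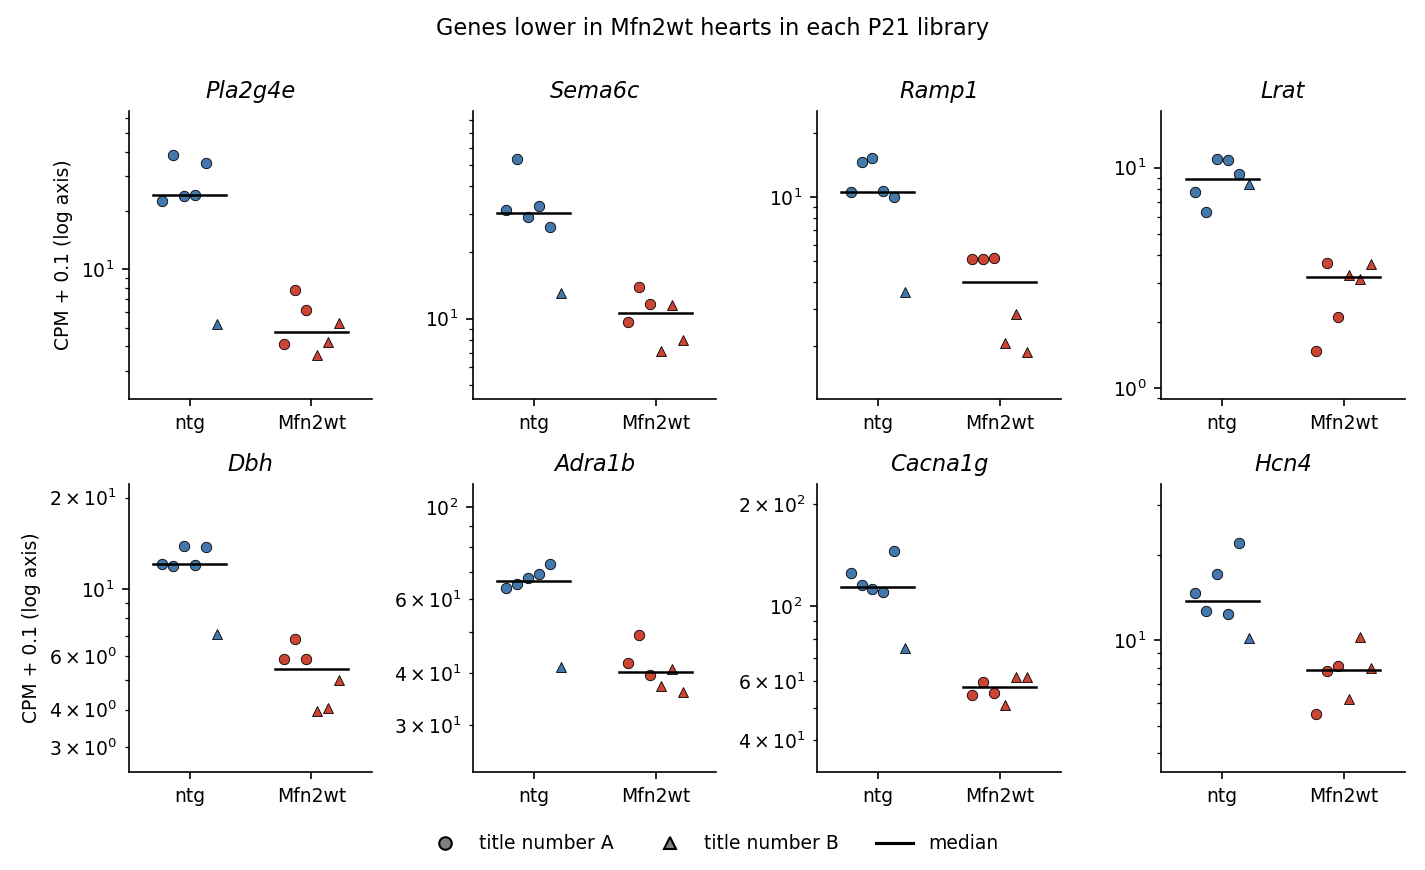
CPM in each of the 12 libraries for genes that fell, on a log axis with a small constant added, with circles for title number A, triangles for B and a line at each group's median. In Pla2g4e, Sema6c and Ramp1 the single ntg triangle, replicate 6, lies within the Mfn2wt points.

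Among the remaining fallers, Lrat, which stores retinol as its ester, had 1.38, 3.1 and 3.6 CPM in Mfn2wt and 6.19, 8.78 and 10.8 CPM in ntg hearts (-1.66 ± 0.29, adjusted p 0.00257). The Lrat ranges were apart, but against tet-off hearts in place of ntg the fold change was -0.68 (adjusted p 0.19). That control gave 821 called genes (6.04%), 308 higher (2.27%) and 513 lower (3.78%). Pdlim4, an actin-binding protein, had 8.44, 11.4 and 14.4 CPM against 14.3, 19.5 and 23.2 CPM (-0.73 ± 0.12, adjusted p 0.00167), and Pnpla3, a lipid droplet protein, had 3.58, 6.3 and 8.89 CPM against 7.44, 12.3 and 16.5 CPM (-0.89 ± 0.18, adjusted p 0.0169). Both overlapped between groups, and Pnpla3 lost its call without Mfn2wt replicate 6 or ntg replicate 5 and with the title number as a block (-0.69, adjusted p 0.139). Beside it, the 11 adipocyte markers summed to between 112 and 133 CPM in Mfn2wt and to between 126 and 176 CPM in ntg hearts, the 8 tested had a median of -0.91 with none called, and their part in the Pnpla3 value was not tested. Hlf, a circadian output factor and the 1 called of 18 clock genes, had 31.9, 36 and 41.5 CPM against 38.6, 54 and 60.8 CPM (-0.54 ± 0.11, adjusted p 0.00961). Bcl2l11, the pro-apoptotic protein BIM and the 1 called of 20 p53 and apoptosis genes, had 8.36, 9 and 9.66 CPM against 11.2, 12.7 and 16.2 CPM (-0.53 ± 0.11, adjusted p 0.018). Bcl2l11 ranges were apart and Hlf ranges overlapped, and the Bcl2l11 call ended without Mfn2wt replicate 4 or ntg replicate 3 and against tet-off hearts (-0.13, adjusted p 0.545). Hlf was not called with the title number as a block (-0.44, adjusted p 0.0521) or in title number A alone (-0.54, adjusted p 0.0537). Casq1, the calsequestrin of skeletal muscle, fell by 0.62 ± 0.14 on the log2 scale and Aqp4, a water channel, by 0.95 ± 0.21. These calls ended without any of 9 and 8 single libraries, with adjusted p values up to 0.097 and 0.264 over all settings. Beside Casq1, the 14 skeletal muscle markers summed to between 38.6 and 94.1 CPM in Mfn2wt and to between 38.7 and 84.9 CPM in ntg hearts. The 6 tested had a median of -0.318 with 2 positive and none called, and their part in the Casq1 value was not tested. Mamstr, a coactivator of the muscle factor MEF2, Ppil1, a spliceosomal prolyl isomerase, and Sh3rf2, a ubiquitin ligase, fell by 0.62, 0.58 and 0.57 on the log2 scale and lost their calls without any of 6, 9 and 6 single libraries. Against tet-off hearts Ppil1 (-0.07, adjusted p 0.81) and Sh3rf2 (-0.06, adjusted p 0.844) were near 0 and not called, and with the title number as a block Mamstr (-0.55, adjusted p 0.116) and Aqp4 (-0.78, adjusted p 0.238) were not called.

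The same genotypes were compared in other hearts at 5 weeks and at P1, which share no library with P21. At 5 weeks no Mfn2wt heart shared a title number with an ntg heart. At 5 weeks 53 of 13661 genes (0.388%) were called, 48 higher (0.351%) and 5 lower (0.0366%). Of the 82 genes called at P21, 81 were tested at 5 weeks, all 81 had the same sign, and 28 were called, none in the opposite direction. Over all genes tested at both ages 57.4% had the same sign. The median 5-week log2 fold change was 0.732 for the P21 risers and -0.603 for the P21 fallers. The 5-week count was 30 to 35 without Mfn2wt replicates 1 or 4 or ntg replicates 1, 2 or 3, and Rn45s took 6.56% to 34.4% of counts in the 4 Mfn2wt libraries at that age.

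Many of the stress response genes called at P21 were called at 5 weeks, while the tRNA synthetases had 7 calls of 20, without Nars (0.61 ± 0.14, adjusted p 0.0774), Eprs (0.68 ± 0.27, adjusted p 0.732) and Lars (0.45 ± 0.22, adjusted p 0.983). Mthfd2 had 54.7, 59.5 and 66 CPM (lowest, median, highest) in 5-week Mfn2wt hearts and 1.2, 1.5 and 1.74 CPM in ntg hearts, a log2 fold change of 5.34 ± 0.23. Fgf21 had 2.62, 3.38 and 5.76 CPM against 0, 0.0304 and 0.134 CPM (6.29 ± 0.89), and Atf5 had 573, 675 and 843 CPM against 105, 114 and 198 CPM (2.38 ± 0.26). Asns (3.76 ± 0.37), Gdf15 (3.00 ± 0.48), Phgdh (2.68 ± 0.26), Chac1 (2.49 ± 0.30), Slc7a5 (2.43 ± 0.16) and Trib3 (2.40 ± 0.20) were called as well. Among genes that missed the test at P21, the enzymes Psat1 (1.43 ± 0.29), Pycr1 (1.40 ± 0.24) and Aldh1l2 (1.55 ± 0.21) and the regulator Sesn2 (1.32 ± 0.22) were called at 5 weeks. The change of the genotype difference between P21 and 5 weeks was tested directly and 0 of 14610 genes passed in edgeR's quasi-likelihood test, 507 had an unadjusted p below 0.05, and DESeq2 called 3.

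Among the fallers Slc44a2, a choline transporter-like protein (-0.58), and Smtnl2 (-0.69) were called at 5 weeks. Cacna1g was at -1.07 ± 0.24 (adjusted p 0.076), Hcn4 at -1.08 ± 0.33, Dbh at -0.97 ± 0.29, Lrat at -1.81 ± 0.52 and Pla2g4e at -0.77 ± 0.41, none called. Nppa, uncalled at P21, rose at 5 weeks (2.52 ± 0.41). It is 1 of the 13 atrial markers, whose median there was 1.24 with 3 called higher, and their part in the Nppa value was not tested.

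At P1 20 of 13653 genes (0.146%) were called, 12 higher (0.0879%) and 8 lower (0.0586%). Of the 82 genes 76 were tested, 52 had the same sign as at P21 and 1, Macrod2, was called. Over all genes tested at both ages 51% had the same sign. The P1 count was 1 to 11 without Mfn2wt replicates 1, 2 or 4 or ntg replicates 2 to 6, 85 without Mfn2wt replicate 3 and 115 without ntg replicate 1. All P1 Mfn2wt hearts had the same title number, shared by ntg replicate 1 alone, and ntg replicates 2 to 6 had another. Genotype and title number can thus hardly be told apart at P1. Macrod2 had 25.7, 32 and 36 CPM in P1 Mfn2wt hearts and 3.62, 3.85 and 6.21 CPM in ntg hearts (2.87 ± 0.14), without overlap. Mthfd2 had 6.63, 7.98 and 8.94 CPM against 4.71, 7.04 and 7.85 CPM (0.24 ± 0.16), and Atf5 had medians of 47.4 and 43.7 CPM (0.02 ± 0.10). Asns came nearest to a call among the stress genes (0.88 ± 0.22, adjusted p 0.0772), with 3.79, 4.39 and 4.58 CPM against 1.39, 2.19 and 3.42 CPM. The human transgene was at 338.5 ± 105.1 FPKM in P1 and at 1469 ± 214.5 FPKM in 5-week Mfn2wt hearts (SD, n = 4 each).

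The difference between the P21 and P1 genotype effects passed the test for 23 of 14610 genes (0.157%), 11 of them higher (0.0753%) and 12 lower (0.0821%) at P21. It was 3.56 ± 0.36 for Mthfd2, 2.09 ± 0.43 for Asns, 1.52 ± 0.22 for Atf5, 1.51 ± 0.29 for Trib3, 1.49 ± 0.31 for Phgdh and 1.37 ± 0.20 for Slc7a5. For Macrod2 it was 0.16 ± 0.23 and did not pass. Among fallers it was -1.78 ± 0.35 for Sema6c and -1.61 ± 0.32 for Ramp1. These genes were chosen from the P21 libraries that the test also uses, and age and library batch cannot be told apart. The count was 14 without ntg replicate 1, 15 without ntg replicate 5 and 39 without ntg replicate 6 at P21.

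**Figure D4:**
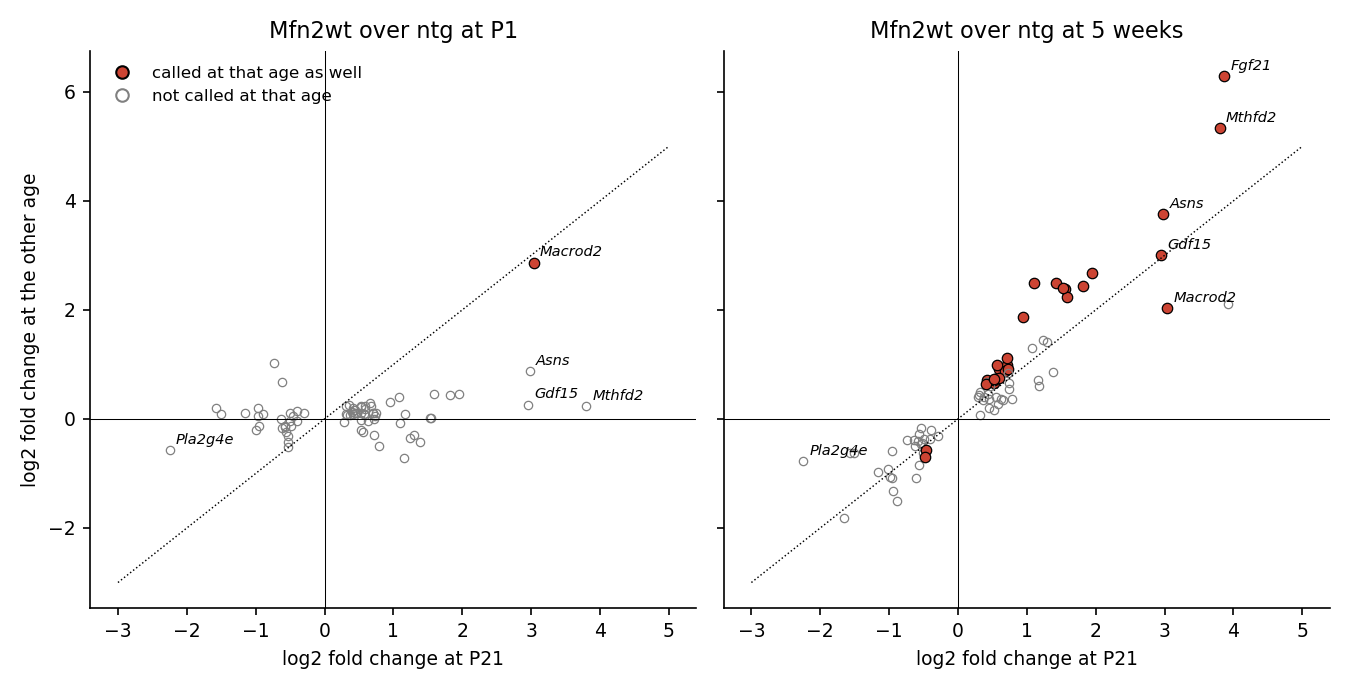
Log2 fold change of Mfn2wt over ntg for the genes called at P21, plotted on the horizontal axis, against the same fold change at P1 and at 5 weeks on the vertical axes. At 5 weeks all 81 tested genes lie on the same side of 0 as at P21, while at P1 most points lie near 0 except Macrod2.

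The other transgenic line at P21, Mfn2AA, was set beside its own control, the tet-off hearts, and 78 of 13585 genes (0.574%) were called there. Transgene levels were higher in that line, at 5319 ± 2059 FPKM (SD, n = 6) against 1588 ± 142.6 FPKM (SD, n = 6) in Mfn2wt hearts, so the lines differ in level as well as in sequence. Mthfd2 had 3.98, 9.51 and 15.6 CPM in Mfn2AA hearts and 2.63, 3.24 and 4.7 CPM in tet-off hearts (1.47 ± 0.32, adjusted p 0.0365), the 1 called gene of the 6 stress lists in that comparison apart from a transporter that fell. The Mfn2AA fold changes of Fgf21 (2.14 ± 0.79), Gdf15 (1.32 ± 0.59), Phgdh (0.69 ± 0.26), Asns (0.48 ± 0.37), Atf5 (0.42 ± 0.11), Slc7a5 (0.25 ± 0.14) and Chac1 (-0.13 ± 0.20) did not pass.

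The difference of the 2 line effects was tested in the 23 P21 libraries and passed for 30 of 13585 genes (0.221%), 23 of them higher (0.169%) and 7 lower (0.0515%) in the Mfn2wt effect. Mfn2wt exceeded Mfn2AA in effect by 2.5 ± 0.49 for Asns, 2.33 ± 0.44 for Mthfd2, 1.56 ± 0.20 for Slc7a5, 1.56 ± 0.28 for Chac1, 1.19 ± 0.23 for Trib3 and 1.13 ± 0.15 for Atf5. For Fgf21 (1.73 ± 1.48) and Gdf15 (1.63 ± 0.82) it did not pass. Macrod2 differed by 2.38 ± 0.26, with 3.67, 4.8 and 6.46 CPM in Mfn2AA hearts and 2.61, 3.11 and 3.68 CPM in tet-off hearts. Among the fallers the difference was -1.74 ± 0.34 for Sema6c and -1.25 ± 0.23 for Dbh. The genes were again chosen from libraries in the test, and each line was read against a different control. The count was 16 without Mfn2wt replicate 4 and 19 and 17 without ntg replicates 1 and 4.

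**Figure D5:**
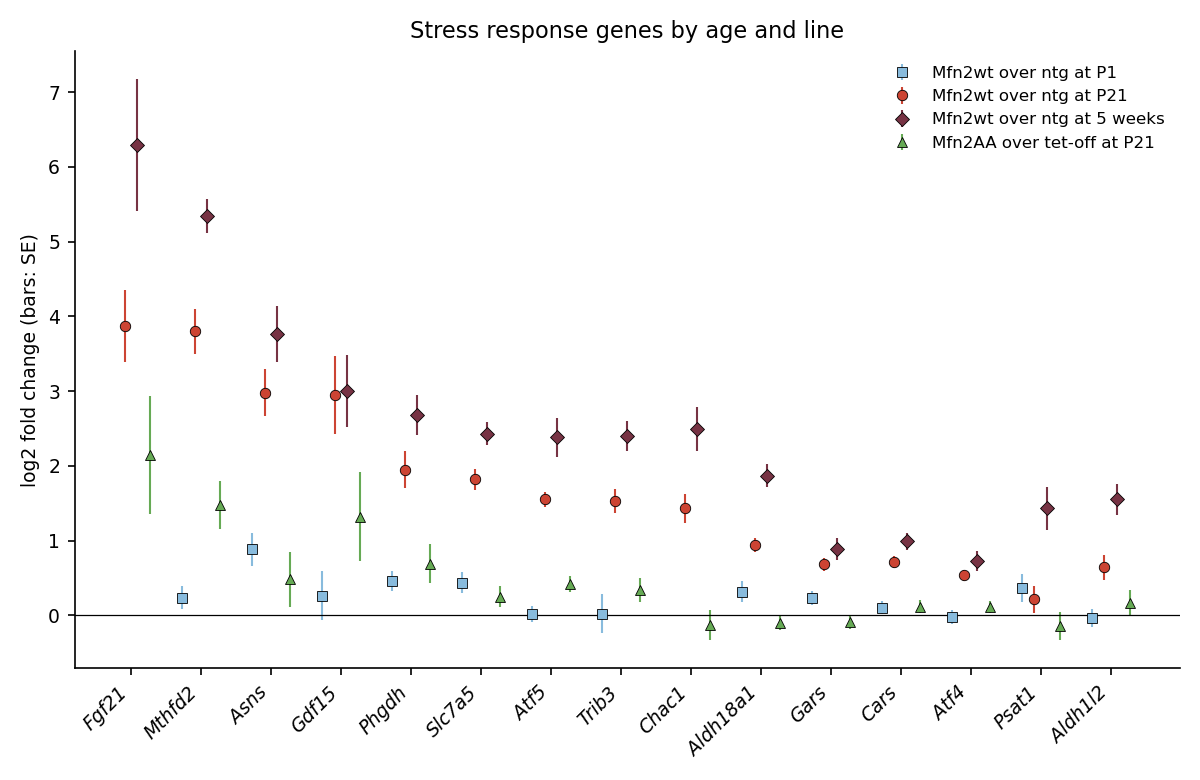
Log2 fold change (vertical axis, bars are the SE) of 15 stress response genes for Mfn2wt over ntg at P1, P21 and 5 weeks and for Mfn2AA over tet-off at P21. Mthfd2 stands at 0.24, 3.80 and 5.34 in the Mfn2wt comparisons and at 1.47 in the Mfn2AA comparison.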

How the data were processed

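Polyadenylated RNA of ventricular apexes was read from single ends without strand information, per the labels' protocols. The submitters' processing notes name the build mm10 and the tools Bowtie2, TopHat2 2.0.10 and HTSeq, and the table the authors deposited holds the raw count of 23429 genes in 63 libraries. The deposited FPKM table, made by the authors with Cufflinks 2.1 per the same notes, lists the human transgene. The deposited annotation gives exon coordinates (other unit: base positions on mm10), which the authors extended with the transgene per the file's own entries.

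Counts were tested with edgeR 4.0.16 in R 4.3.3 (TMM scaling, its filter by expression with a minimum count of 10, quasi-likelihood F test). The 23 P21 libraries of 4 genotypes shared a fit, and Benjamini-Hochberg adjustment ran over all genes tested. P1 and 5 weeks were fitted likewise, and the differences between ages over 56 libraries. Transgene levels, as log2(FPKM + 1), were compared with an exact permutation test. The comparison, its members, the 42 gene lists and the rule for named genes were chosen with earlier results of these data known. The rule took the transgene, Mfn2, Park2, Pink1, all members of 4 stress lists, up to 4 called and 2 uncalled genes of each other list, and the 15 called genes with the greatest rise and the 15 with the greatest fall that had a group mean of at least 1 CPM. A gene that the rule selects is not reported here. Outside the rule, Adrbk2, Brca2, Ccnd2, Eprs, Gnb3, Hspa5, Hspa9, Hspd1, Iars, Lars, Nars, Prune2, Sars, Sel1l2, Slc25a5, Slc44a2, Smtnl2, Sun3, Upp1, Xpot and Yars were chosen after their values were seen.

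Alternatives were RLE scaling, DESeq2 1.42.0, no filter, a mean of at least 10 CPM, limma 3.58.1 on log2(FPKM + 1) and log2(FPKM + 0.1), the 2 groups alone, tet-off as control, the title number as a block, the level of Y-linked genes as a term, no mitochondrial genes or Rn45s, and each library left out. The fit on title number A alone was chosen after seeing the data. Figures were drawn with matplotlib 3.10.9. Reads were not used here.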

Additional observations from a re-analysis of the deposited data

Results flagged for a closer look

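A library stood apart from the other 5 of its group, by Dixon's test at the 95% level, for 7 of the genes named. In 5 of them the library was ntg replicate 6, the ntg heart with title number B: Dbh at 7.00 CPM, Pla2g4e at 5.1 CPM, Ramp1 at 3.5 CPM and Adra1b at 41.3 CPM were the lowest ntg values, and Tchhl1 at 0.292 CPM was the highest. The remaining 2 were Atf5 in ntg replicate 5, at 83.7 CPM, and Gars in Mfn2wt replicate 2, at 109 CPM. Chance flags about 1 in 20 groups, and many genes were screened in both groups. The flags were not set against the number of groups screened, so they cannot be told from chance. For Dbh, Pla2g4e and Ramp1 the fall was larger without ntg replicate 6.

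The Mfn2wt to ntg difference exceeded the Mfn2AA to tet-off difference, by edgeR's test of the difference itself, for Asns (2.5 on the log2 scale), Macrod2 (2.38), Mthfd2 (2.33), Slc7a5 (1.56), Chac1 (1.56), Trib3 (1.19), Atf5 (1.13), Aldh18a1 (1.05), Slc1a4 (0.969), Gars (0.775) and Cars (0.595). It was lower for Sema6c (-1.74), Dbh (-1.25) and Bcl2l11 (-0.911). The lines were read against different controls.

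The Mfn2wt to ntg difference was higher at P21 than at P1, by the same kind of test, for Mthfd2 (3.56), Asns (2.09), Tmem116 (1.57), Atf5 (1.52), Trib3 (1.51), Phgdh (1.49), Slc7a5 (1.37) and Cars (0.603). It was lower for Sema6c (-1.78), Pdlim4 (-1.77), Ramp1 (-1.61) and Casq1 (-1.3). Age and library batch cannot be told apart in these values.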

How the results depend on the processing

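The P21 count of 82 called genes (54 higher, 28 lower) was 146 with DESeq2, 821 with tet-off hearts as the control and 47 in title number A alone, and 45 to 145 when single libraries were left out. It was 82 with RLE scaling, 85 without the filter, 63 at a mean of at least 10 CPM, 79 with limma at either pseudocount (47 higher, 32 lower), 72 with the 2 groups alone (41 higher, 31 lower), 82 without mitochondrial genes and Rn45s and 84 with the level of Y-linked genes as a term. With the title number as a replicate block it was 66 (43 higher, 23 lower), of which 53 were among the 82. Deviations of libraries from their group mean had a mean correlation of 0.0443 within a number (18 pairs, -0.183 to 0.328). Between numbers it was -0.044 (18 pairs, -0.383 to 0.17). Deviations cancel within each group, which ties these 2 means to opposite signs, so they cannot decide whether the number pairs the samples. The P1 count of 20 was 187 with DESeq2, 42 without the filter, 8 with the 2 groups alone and 1 to 115 without single libraries. The 5-week count of 53 was 116 with DESeq2 and 30 to 57 without single libraries. The count for the difference between lines, 30, was 66 with DESeq2 and 16 to 32 without single libraries, and that for P21 minus P1, 23, was 60 and 14 to 39. P21 minus 5 weeks went from 0 to 3 with DESeq2 and stayed 0 without each library. The transgene difference of 6.49 ran from 6.20 to 6.80 without single libraries. Cebpb, uncalled at 0.06, was at -0.959 (adjusted p 0.0173) with tet-off as control. The cause of these shifts was not tested. Of the 82 genes 26 kept their call in every setting that tested them, up to 24, 22 lost it in 1 to 5 and 34 in more, and 0 changed sign. Scaling moved the median of all genes by at most 0.00276. Depth limits Fgf21, Tchhl1 and Sel1l2, which had 5, 6 and 2 reads over the ntg libraries.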

Other observations

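RNA of ntg replicates 1, 2 and 4 was sequenced again in the library batch of P1, and these 3 libraries entered no comparison. Their values are CPM of the total count, without scaling between libraries. Mthfd2 was at 3.43, 2.6 and 1.75 CPM there, Asns at 3.27, 2.28 and 1.97 CPM and Gdf15 at 0.319, 0.488 and 0.109 CPM, and Fgf21 had 0, 0 and 0 reads. Of the genes that fell in Mfn2wt hearts, Pla2g4e was at 21.2, 37 and 31.4 CPM, Sema6c at 25.1, 38.7 and 27.2 CPM and Ramp1 at 10.3, 10.3 and 12.9 CPM in the repeats.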
